A study of Homo sapiens with 8 samples.

Results

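The genes of haem synthesis were followed in cells labelled KG-1a after lentiviral delivery of shNYNRIN, a short hairpin RNA that targets NYNRIN, or of the control shCTL. Members were the rows whose symbol was ALAS1, ALAS2, ALAD, UROS, UROD, CPOX, PPOX, FECH or SLC25A38, and all 9 were found once in each deposited table, among 13068 genes listed in both. KG-1a is an established human acute myeloid leukaemia line, given in the labels as a leukaemia stem cell type from bone marrow, with genotype WT for the control cells and NYNRIN-knockdown for the others. The cells were sorted after lentiviral transfer, and RNA was sequenced with a template-switching kit for low input. Every library comes from this 1 line, and the labels name neither the number of hairpin sequences nor whether replicates were separate cultures. There were 8 libraries, 4 per group. The first deposited table (set 1) holds replicates 1 and 2 of each group and the second (set 2) holds replicates 3 and 4.

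Values are read as FPKM, a level scaled to transcript length and to library size. The column of shCTL replicate 3 holds whole numbers only, so its values are given as listed and were left out of the tests, which used 7 libraries. Set 2 therefore rested on 1 control library, shCTL replicate 4. The libraries tested summed to between 307554 and 311536, and by the step size of low values in set 2 the shNYNRIN libraries were 1.34 (replicate 3) and 1.30 (replicate 4) times as deep as the control tested there. NYNRIN, the target, was at 12.2 and 12.5 FPKM in the shCTL and 6.98 and 7.30 FPKM in the shNYNRIN libraries of set 1. In set 2 it was at 10.4 FPKM in shCTL replicate 4, listed at 10 in shCTL replicate 3, and at 2.83 and 2.84 FPKM with shNYNRIN. It fell in both sets (log2 change -0.71 and -1.57, limma adjusted p = 0.000984 and 0.000119), and by a single effect over both sets it did not pass (-1.05, limma adjusted p = 0.0612). With the effect free to differ and averaged over the sets, NYNRIN passed (-1.14, limma adjusted p = 0.000303).

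Markers went against the label in part. KG-1a is known as a CD34-positive immature myeloid line, yet CD34 lay between 0.681 and 1.79 FPKM, while the value of 0 listed for myeloperoxidase (MPO) in all 4 libraries of set 2 can be a failed estimate and is not read as absence. The pan-leukocyte gene PTPRC (23.2 to 30.7 FPKM) and the myeloid gene CD33 (18.8 to 24.8 FPKM) were present. Of 12 erythroid markers 10 were listed in both tables, with the Rh-associated glycoprotein RHAG at 151.8 to 186 FPKM, the membrane protein gene EPB42 at 84.5 to 106 FPKM and beta-globin (HBB) at 31.4 to 50.8 FPKM. The other globins listed were lower. HBA2 was at 13.7 to 22.9 FPKM, HBG2 at 8.49 to 15.9 FPKM, HBA1 at 2.17 to 4.36 FPKM and HBG1 at 1.64 to 4.01 FPKM. The megakaryocyte integrin ITGA2B stood at 518 to 589 FPKM. The late erythroid genes AHSP and SLC4A1 did not exceed 0.320 FPKM in set 2. The cells are therefore called here by their label only.

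Haem, the iron-carrying ring of haemoglobin, cytochromes and catalase, is built in a chain of enzymes that starts in the mitochondrion, passes through the cytosol and returns. The first step joins glycine to succinyl-CoA and is made by 2 isoenzymes, ALAS1 in most tissues and ALAS2 in erythroid cells, and it limits the rate of the chain. ALAS1 is repressed by haem, while ALAS2 is driven by the erythroid transcription factors GATA1 and KLF1 and, at the level of translation, by iron.

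The promoters of the isoenzymes and of CPOX are shown as examples: the isoenzymes because they make the step that limits the chain, and CPOX because its window holds the GATA motif 2 times. RefSeq windows of 300 bases, from 250 before to 50 after the start in GRCh38.p14, were found for 8 of 9 members. The first stretches are upstream of the starts in both RefSeq and GENCODE 29, 5′ to 3′ on the minus strand, with capitals for a GATA motif. The motif was searched on both strands as AGATAA or as AGATAG. The forms TGATAA and also TGATAG were counted as well. The last pair are short windows, the ALAS2 one on the minus strand around an NF-E2 and AP-1 motif (TGAGTCA) and the ALAS1 one on the plus strand around an NRF1 motif, both searched on both strands and shown in capitals. This ALAS2 window is upstream of the RefSeq start (motif from base -47) but inside the GENCODE 29 gene. The ALAS1 window is downstream of both starts, with the motif from base 22 after the RefSeq start.
ALAS2, chrX:55031065-55031227: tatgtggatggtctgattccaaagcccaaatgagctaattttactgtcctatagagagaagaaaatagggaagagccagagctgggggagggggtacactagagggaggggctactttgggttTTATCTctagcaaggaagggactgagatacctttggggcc
CPOX, chr3:98593724-98593861: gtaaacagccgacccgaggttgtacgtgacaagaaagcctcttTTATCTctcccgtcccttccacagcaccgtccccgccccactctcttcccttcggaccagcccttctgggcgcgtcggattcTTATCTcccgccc
ALAS2, chrX:55031008-55031034: tgggtggggcTGAGTCAgaggagaagg
ALAS1, chr3:52198094-52198123: agcgcccaagGCGCATGCGCagcggtcact

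A GATA motif was found in the windows of ALAS2, CPOX, ALAD and PPOX and in 25.0% of all 34796 distinct windows of this length, so it is common. The NF-E2 and AP-1 motif of ALAS2 was in 4.96% of all windows and the NRF1 motif of ALAS1 in 1.23%. The motif CCACACCC, searched on both strands, was found among members in PPOX and in 3.25% of all windows. A match describes these letters and shows no binding.

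Levels per length spanned more than an order of magnitude along the chain. UROD, uroporphyrinogen decarboxylase, was the most abundant member in each of the 7 libraries, at 220.7 to 258 FPKM, and made up 50.5% to 53.9% of the summed level of the 9 genes. CPOX (41.7 to 53.4 FPKM) and ALAS1 (35.8 to 50.4 FPKM) followed with overlapping ranges, CPOX being above ALAS1 in 5 of 7 libraries. UROS (26.9 to 37.2 FPKM) and ALAD (25.9 to 32.8 FPKM) also overlapped, with UROS above ALAD in 5 of 7. A gap without overlap separated ALAD from PPOX (15.4 to 18.3 FPKM). PPOX and SLC25A38 (14.9 to 17.5 FPKM) overlapped, and so did SLC25A38 and FECH (12.7 to 15.9 FPKM), although SLC25A38 was above FECH in 7 of 7 libraries. ALAS2 was lowest by median, at 9.23 to 15.6 FPKM, and had the widest relative range, 1.69-fold from its lowest to its highest library against 1.17-fold for UROD.

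**Figure D1:**
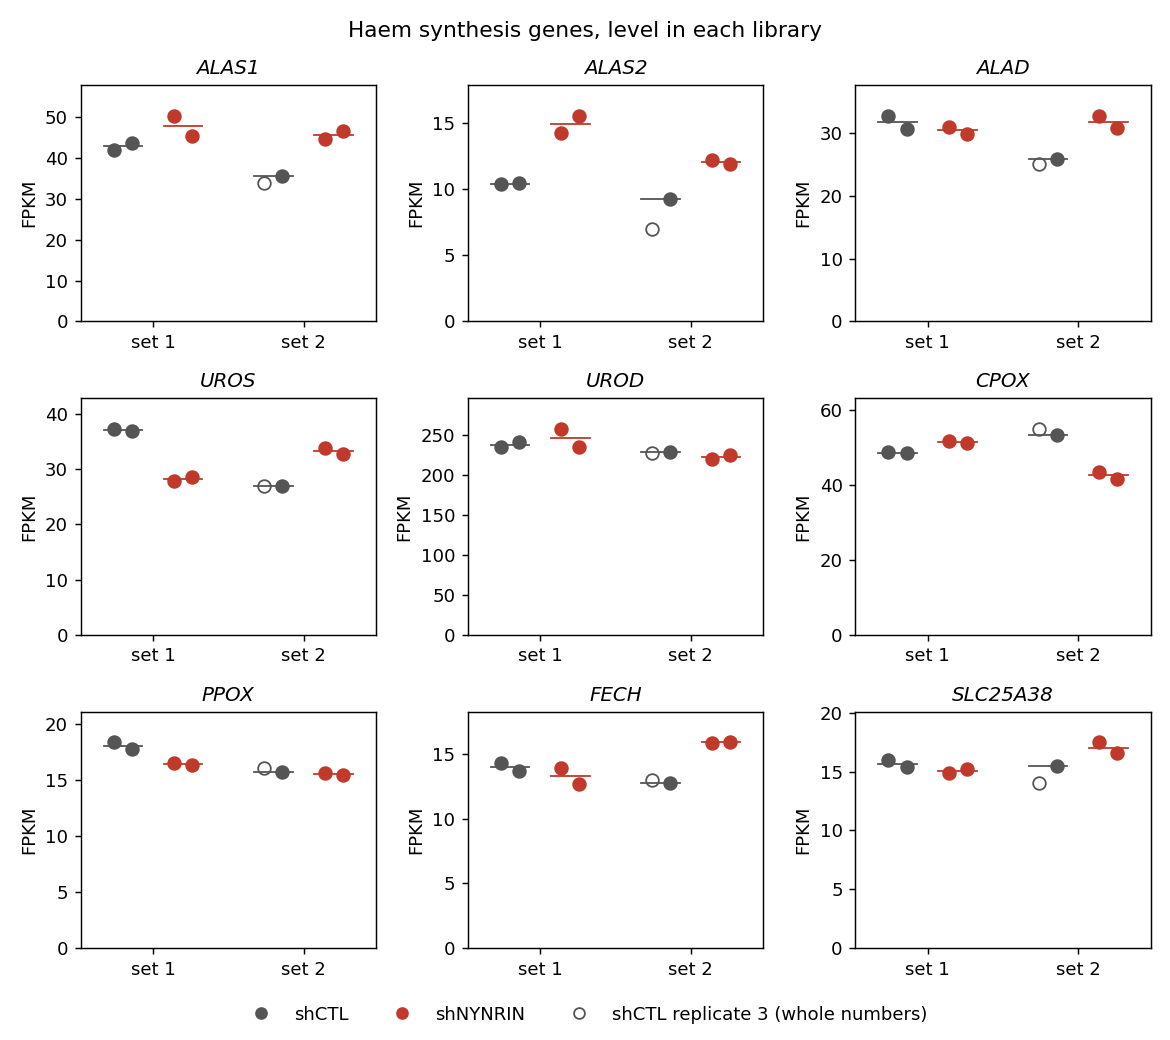
Level of each haem synthesis gene in FPKM (y axis, from 0) in the shCTL (grey) and shNYNRIN (red) libraries of sets 1 and 2; lines are means over the libraries tested and the open circle is shCTL replicate 3, listed in whole numbers. ALAS2 was higher in the shNYNRIN libraries of both sets, whereas UROS was lower in set 1 and higher in set 2.

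ALAS2, the erythroid isoenzyme of the first step, rose in both sets. In set 1 it was at 10.4 and 10.5 FPKM in the shCTL libraries and at 14.3 and 15.6 FPKM with shNYNRIN (limma log2 change 0.48 on the log2(FPKM + 1) scale, SE 0.053, adjusted p = 0.00391). In set 2 it was at 9.23 FPKM in shCTL replicate 4 and at 12.2 and 11.9 FPKM with shNYNRIN (limma log2 change 0.35, SE 0.064, adjusted p = 0.01197), with shCTL replicate 3 listed at 7. Each shNYNRIN library was above each shCTL library, over both sets, which held for ALAS1 as well. The share of all genes separated in this way was not computed, so this separation is given as description only. The effects of the sets were not shown to differ (difference -0.13, SE 0.083, limma adjusted p = 0.339). ALAS2 lies on chromosome X from 55009055 to 55031064, minus strand, in the GRCh38 annotation of GENCODE 29, as a protein-coding gene (ENSG00000158578) that overlaps APEX2 on the other strand. The authors' deposited table gives ALAS2 a mean normalized count of 952, the lowest of the 9, a log2 fold change of 0.49 and a q-value of 7.45e-06 in set 1. Without shNYNRIN replicate 3 or 4 the set 2 call was lost (limma adjusted p = 0.0629 and 0.0504, with a range of 0.0017 to 0.0629 over 16 alternatives).

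ALAS1, the housekeeping isoenzyme, was at 42.1 and 43.8 FPKM in shCTL and at 50.4 and 45.5 FPKM in shNYNRIN libraries of set 1. That log2 fold change of 0.15 (SE 0.054) did not pass (limma adjusted p = 0.102). In set 2 ALAS1 rose from 35.8 FPKM in shCTL replicate 4 to 44.6 and 46.7 FPKM (limma log2 change 0.34, SE 0.066, adjusted p = 0.01399), and the column of shCTL replicate 3 gives 34. As for ALAS2, each shNYNRIN library was above each shCTL library over both sets, though narrowly (44.6 against 43.8 FPKM across the sets). The control level of ALAS1 was lower in set 2. Without shNYNRIN replicate 4 the set 2 call was lost (limma adjusted p = 0.0689, 0.000837 to 0.0689 over 16 alternatives), as it was without the mean-variance trend (limma adjusted p = 0.0515). The set 1 value passed without shNYNRIN replicate 2, at 0.23, and among genes of a mean of at least 10 FPKM (limma adjusted p = 0.03398 and 0.0466, 0.03398 to 0.315 over 17 alternatives). The difference between the sets was 0.19 (limma adjusted p = 0.168) and passed without shNYNRIN replicate 1, at 0.26 (limma adjusted p = 0.0384, 0.0384 to 0.352 over 16 alternatives). ALAS2 made up 19.8% and 19.3% of the summed ALAS1 and ALAS2 level in the shCTL libraries of set 1, and 22.0% and 25.5% with shNYNRIN. In set 2 that share was 20.5% in shCTL replicate 4 and 21.5% and 20.3% with shNYNRIN, so the balance of the isoenzymes overlapped between groups there. SLC25A38, the mitochondrial carrier that brings glycine to this step, was at 16.0 and 15.4 FPKM in shCTL and 14.9 and 15.2 FPKM in shNYNRIN libraries of set 1 (-0.056). In set 2 it was at 15.5 FPKM in shCTL replicate 4, listed at 14 in replicate 3, and at 17.5 and 16.6 FPKM with shNYNRIN (0.13, limma adjusted p = 0.145). With shCTL replicate 3 included as deposited, plus 0.5 or in place of replicate 4, SLC25A38 passed in set 2 at 0.20, 0.17 and 0.22 (limma adjusted p = 0.0276, 0.0266 and 0.0316, 0.0266 to 0.420 over 16 alternatives). The difference between the sets, 0.19, passed in the same fits (limma adjusted p = 0.0470, 0.0386 and 0.0353, 0.0353 to 0.285 over 16 alternatives).

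Of the enzymes that act in the cytosol, UROS changed most and in opposite directions. UROS, uroporphyrinogen III synthase, closes the ring in the orientation used for haem. In set 1 it fell from 37.2 and 36.8 FPKM to 27.9 and 28.5 FPKM (limma log2 change -0.38, SE 0.035, adjusted p = 0.00206). In set 2 it rose from 26.9 FPKM in shCTL replicate 4, with shCTL replicate 3 listed at 27, to 33.9 and 32.7 FPKM (limma log2 change 0.30, SE 0.043, adjusted p = 0.00509). The groups did not overlap in either set. This does not set UROS apart, since no member overlapped in set 2 and only ALAD, UROD and FECH did in set 1. Each UROS call was kept under every alternative fitted, 17 in set 1 and 16 in set 2. The effect was higher in set 2 by 0.68 (SE 0.056, limma adjusted p = 0.000793). UROS (ENSG00000188690, minus strand of chromosome 10, 125784980 to 125823285, overlapping MIR4484 on the plus strand) had a log2 fold change of -0.42 and a q-value of 3.42e-16 in the authors' deposited table for set 1.

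ALAD, which joins aminolevulinate molecules into the pyrrole porphobilinogen, was at 32.8 and 30.7 FPKM in shCTL and 31.0 and 29.9 FPKM in shNYNRIN libraries of set 1, with overlap (-0.058, limma adjusted p = 0.445). In set 2 ALAD rose from 25.9 FPKM in shCTL replicate 4, listed at 25 in replicate 3, to 32.7 and 30.9 FPKM (limma log2 change 0.28, SE 0.058, adjusted p = 0.0174). The difference between the sets was 0.34 (SE 0.075, limma adjusted p = 0.0214). Without shNYNRIN replicate 3 neither held (limma adjusted p = 0.0803, 0.0014 to 0.0803 over 16 alternatives, for set 2 and 0.0705, 0.00409 to 0.0705 over 16, for the difference), and without shCTL replicate 1 the difference did not pass (limma adjusted p = 0.0589). Without the mean-variance trend both ALAD calls were lost (limma adjusted p = 0.0565 and 0.0663).

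UROD, which trims the side chains of the ring, was at 235 and 242 FPKM in shCTL and at 258 and 236 FPKM in shNYNRIN libraries of set 1, and at 229 FPKM in shCTL replicate 4 and 221 and 225 FPKM with shNYNRIN in set 2. Its log2 fold changes of 0.050 and -0.036 did not pass (limma adjusted p = 0.476 and 0.687). The sign of the set 1 value turned without shNYNRIN replicate 1, the highest library.

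The last 3 enzymes work in the mitochondrion. CPOX, coproporphyrinogen oxidase, was at 48.9 and 48.5 FPKM in shCTL and 51.8 and 51.3 FPKM in shNYNRIN libraries of set 1 (0.079, limma adjusted p = 0.155). In set 2 CPOX fell from 53.4 FPKM in shCTL replicate 4, with replicate 3 listed at 55, to 43.6 and 41.7 FPKM (limma log2 change -0.32, SE 0.041, adjusted p = 0.00326). It was the member whose set 2 effect was lower than its set 1 effect by a margin that passed (-0.40, SE 0.052, limma adjusted p = 0.00371), and both calls were kept under all 16 alternatives. CPOX (ENSG00000080819, minus strand of chromosome 3, 98579446 to 98593723) overlaps the gene model AC021660.3 on the same strand, so its reads may be shared.

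PPOX, protoporphyrinogen oxidase, was at 18.3 and 17.7 FPKM in shCTL and 16.5 and 16.3 FPKM in shNYNRIN libraries of set 1, without overlap. That log2 fold change of -0.13 (SE 0.040) did not pass as deposited (limma adjusted p = 0.0714, 0.0337 to 0.270 over 17 alternatives) and passed with upper-quartile scaling, quantile normalization or genes of a mean of at least 10 FPKM. In set 2 PPOX was at 15.7 FPKM in shCTL replicate 4 and 15.6 and 15.4 FPKM with shNYNRIN (-0.015, limma adjusted p = 0.866). PPOX (plus strand of chromosome 1, 161166410 to 161178013) overlaps B4GALT3 on the minus strand, which had 11.4 to 15.2 FPKM, and its values are uncertain because the strand setting of the counting is not given.

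FECH, ferrochelatase, inserts the iron. It was at 14.3 and 13.7 FPKM in shCTL and 13.9 and 12.7 FPKM in shNYNRIN libraries of set 1, with overlap (-0.069, limma adjusted p = 0.426). In set 2 FECH rose from 12.8 FPKM in shCTL replicate 4, listed at 13 in replicate 3, to 15.9 FPKM in both shNYNRIN libraries (limma log2 change 0.29, SE 0.066, adjusted p = 0.0233). The effect was higher in set 2 by 0.36 (SE 0.085, limma adjusted p = 0.02702). The set 2 call was lost without shNYNRIN replicate 3 or 4 or with shCTL replicate 3 plus 0.5 in place of replicate 4 (limma adjusted p = 0.0901, 0.0925 and 0.0537) and without the mean-variance trend of the model (limma adjusted p = 0.0556, 0.00431 to 0.0925 over 16 alternatives). The difference was lost without shCTL replicate 1, shCTL replicate 2, shNYNRIN replicate 3 or shNYNRIN replicate 4 (limma adjusted p = 0.0782, 0.0521, 0.0821 and 0.0831), with shCTL replicate 3 plus 0.5 in place of replicate 4 and without the trend (limma adjusted p = 0.0529 and 0.0624, 0.0097 to 0.0831 over 16 alternatives).

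**Figure D2:**
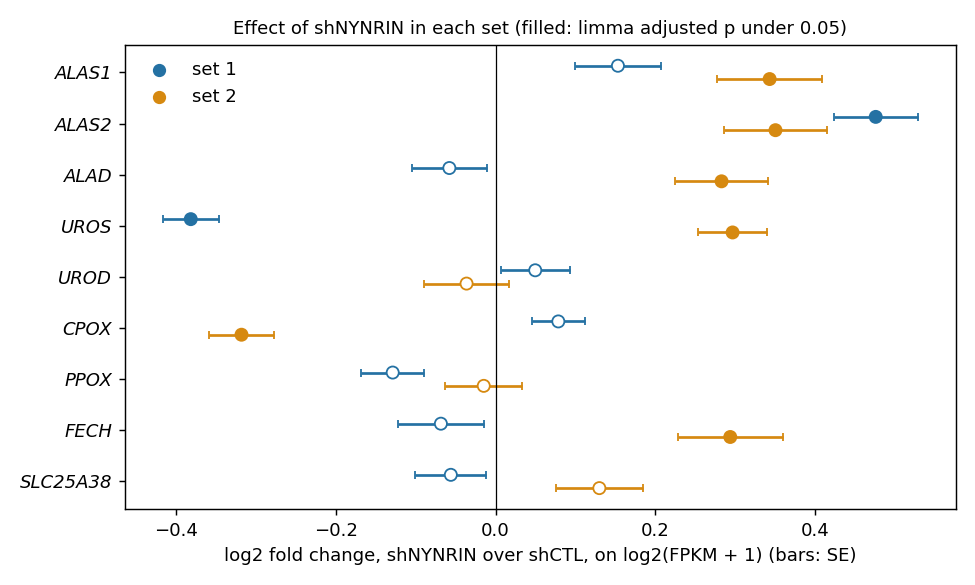
Log2 fold change of shNYNRIN over shCTL on log2(FPKM + 1) (x axis) for the 9 haem synthesis genes (y axis), in set 1 (blue) and set 2 (orange); bars are the SE and filled points had a limma adjusted p under 0.05. ALAS2 lies to the right of 0 in both sets, and UROS lies on opposite sides, at -0.38 and 0.30.

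In counts, set 1 had 1 member higher (ALAS2) and 1 lower (UROS) of 9, against 9.33% higher and 6.61% lower (15.9% in either direction) of all 12939 genes tested. Set 2 had 5 higher (ALAS1, ALAS2, ALAD, UROS and FECH) and 1 lower (CPOX), against 11.6% and 8.71% (20.3% in either direction) of all genes. The effects differed between sets for 4 members, 3 higher in set 2 (ALAD, UROS and FECH) and 1 lower (CPOX), against 10.3% and 10% (20.4% in either direction) of all genes. These shares are lower than among genes of the members' level. Of 5880 genes with a mean of at least 10 FPKM, all members included, 2055 passed in set 1, 2251 in set 2 and 2345 for the difference. In those fits 4, 6 and 4 of the 9 members passed. Without shCTL replicate 1 or without shNYNRIN replicate 3 the effects differed for 2 members. The median log2 fold change of the members was -0.056 in set 1 and 0.28 in set 2, against 0.026 and 0.018 over all genes tested. Set 2 without shNYNRIN replicate 3 had 3 members past the threshold and without shNYNRIN replicate 4 also 3. With upper-quartile scaling 40% of all calls in set 1 were higher, against 58.5% as deposited.

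Fitted as a single effect over both sets, with the table as a term, ALAS2 was the 1 member of 9 that passed, against 0.193% of all genes higher and 0.124% lower (0.317% in either direction). Its log2 fold change was 0.43 (SE 0.053, limma adjusted p = 0.0479, 0.00242 to 0.423 over 19 alternatives). The call was lost without any 1 of the 4 shNYNRIN libraries or the shCTL libraries of set 1 (limma adjusted p from 0.143 to 0.175) and in a fit blocked by library-name number (0.36, limma adjusted p = 0.256) or title number (0.43, limma adjusted p = 0.423). It was lost with quantile normalization and without the trend as well (limma adjusted p = 0.0542 and 0.0813). With shCTL replicate 4 left out, so that the value is that of set 1, UROS passed as well at -0.38 (limma adjusted p = 0.00198, 0.00198 to 0.930 over 19 alternatives). The other members lay between -0.11 (UROS) and 0.23 (ALAS1, limma adjusted p = 0.1196). With the effect free to differ and averaged over the sets, 3 members passed beside 17.8% of all genes, with ALAS1 (0.25) and CPOX (-0.12) added to ALAS2 (limma adjusted p = 0.0112, 0.0112 to 0.467 over 19 alternatives, and 0.0246, 0.0246 to 0.862 over 19).

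The numbers in the library names run across the sets: set 1 holds shCTL 3 and 4 with shNYNRIN 1 and 2, and set 2 holds shCTL 1 and 2 with shNYNRIN 3 and 4. The difference between the sets is therefore, by construction, also a difference between libraries numbered 1 and 2 and libraries numbered 3 and 4, and these cannot be told apart. UROS was at 26.9 to 27 FPKM in shCTL and 27.9 to 28.5 FPKM in shNYNRIN libraries numbered 1 and 2. In those numbered 3 and 4 it was at 36.8 to 37.2 FPKM in shCTL and 32.7 to 33.9 FPKM in shNYNRIN. UROS was thus higher in each library numbered 3 or 4 than in each numbered 1 or 2, whichever hairpin it carried. CPOX was at 53.4 to 55 FPKM in shCTL and 51.3 to 51.8 FPKM in shNYNRIN libraries numbered 1 and 2, and at 48.5 to 48.9 and 41.7 to 43.6 FPKM in those numbered 3 and 4. CPOX was lower with shNYNRIN within each pair of numbers. ALAS2 was at 7 to 9.23 FPKM in shCTL and 14.3 to 15.6 FPKM in shNYNRIN libraries numbered 1 and 2, and at 10.4 to 10.5 and 11.9 to 12.2 FPKM in those numbered 3 and 4. ALAS2 was higher with shNYNRIN by either arrangement. So was ALAS1, at 34 to 35.8 FPKM in shCTL and 45.5 to 50.4 FPKM in shNYNRIN libraries numbered 1 and 2. In those numbered 3 and 4 ALAS1 was at 42.1 to 43.8 FPKM in shCTL and 44.6 to 46.7 FPKM in shNYNRIN. For ALAS2 and ALAS1 no grouping could give another direction, since each shNYNRIN library was above each shCTL library. These levels cross separately deposited tables and were not tested.

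**Figure D3:**
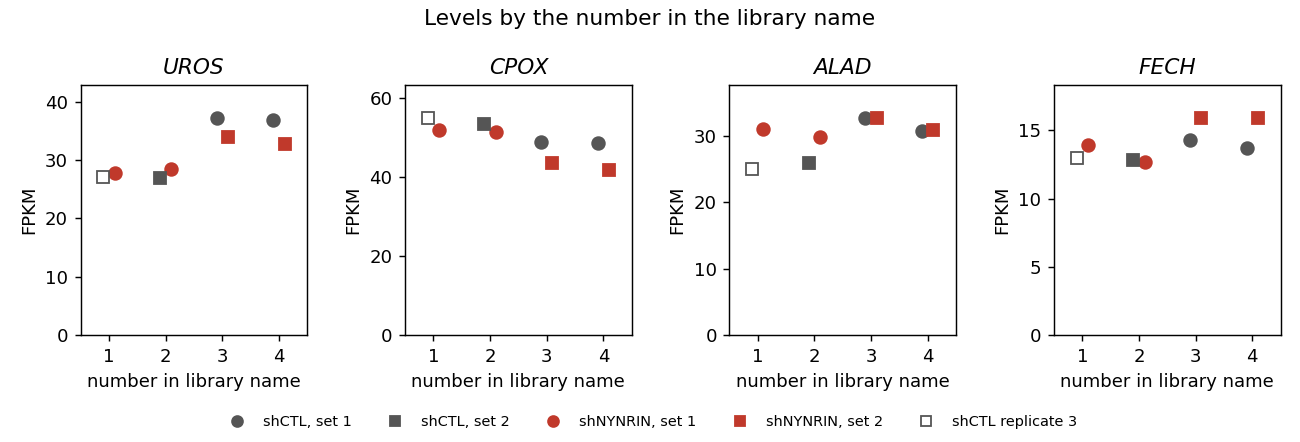
Level in FPKM (y axis, from 0) of UROS, CPOX, ALAD and FECH by the number in the library name (x axis); grey is shCTL, red shNYNRIN, circles are set 1, squares set 2 and the open square is shCTL replicate 3. The 4 UROS libraries numbered 3 and 4 sit at 32.7 to 37.2 FPKM, above the 4 numbered 1 and 2 at 26.9 to 28.5 FPKM.

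Summed over the 10 erythroid markers listed in both tables, the level was 487 to 499.9 FPKM in shCTL and 473 to 485 FPKM in shNYNRIN libraries of set 1, and 448 FPKM in shCTL replicate 4 and 473 to 487 FPKM with shNYNRIN in set 2. Within each set the groups did not overlap in this sum, lower with shNYNRIN in set 1 and higher in set 2. Single markers did not all follow it. In set 1 RHAG, KLF1 and GYPB were by mean lower with shNYNRIN, and the other erythroid markers were higher. In set 2 HBA2, HBB and EPB42 were by mean lower, and the others were higher. The sum of 6 myeloid progenitor markers had the same directions as the erythroid sum, with 177 to 180.2 FPKM in shCTL and 158 to 162 FPKM in shNYNRIN libraries of set 1, and 144 FPKM against 173 to 174 FPKM in set 2. Against the sum, KIT (from 29.4 to 32.6 FPKM) and CD34 (from 0.941 to 1.31 FPKM) were by mean higher with shNYNRIN in set 1. In set 2 CD34 was lower (from 1.79 to 0.723 FPKM), while the other markers of this list were higher. The sum of the monocyte markers LYZ and CSF1R was higher with shNYNRIN in both sets, at 9.97 to 10.3 FPKM against 13.1 to 15.4 FPKM in set 1 and 10.5 FPKM against 14.6 to 14.8 FPKM in set 2. LYZ made up most of it, at 9.02 to 14.4 FPKM over the libraries tested. CSF1R, at 0.738 to 1.35 FPKM, was by mean lower with shNYNRIN in set 1 (from 1.04 to 0.948 FPKM) and higher in set 2. CD14 and FCGR3A did not exceed 0.095 FPKM in set 2. The sum of 3 megakaryocyte markers was lower with shNYNRIN in both sets, at 784 to 788 FPKM against 719 to 745 FPKM in set 1 and 739 FPKM against 711 to 714 FPKM in set 2. ITGA2B made up most of it and was lower by mean in both sets. GP1BA was by mean higher in set 1 (from 61.2 to 62.8 FPKM) and lower in set 2. GP9 was by mean lower in set 1 and higher in set 2 (from 130 to 139 FPKM). The part of these markers in the results was not tested. In bulk RNA, fewer cells of a type and less RNA per cell cannot be told apart.

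Genes that feed, regulate or use the chain moved in both directions. SHMT2, which makes glycine in the mitochondrion, fell in set 1 from 102 and 106 FPKM to 77.8 and 74.7 FPKM (-0.44, limma adjusted p = 0.00221). It rose in set 2 from 83.3 FPKM to 99.97 and 93.7 FPKM (0.21, limma adjusted p = 0.0269). The erythroid transcription factor KLF1 fell in set 1 from 72.3 and 69.4 FPKM to 59.6 and 53.0 FPKM (-0.33, limma adjusted p = 0.01595). Set 2 had it at 60.0 FPKM in shCTL replicate 4 and at 70.0 and 65.9 FPKM with shNYNRIN (0.18, limma adjusted p = 0.141). GATA2, a progenitor transcription factor, fell by 0.27 on the log2 scale in set 1 (limma adjusted p = 0.00191) and rose by 0.17 in set 2 (limma adjusted p = 0.0088). In set 1 ISCU, the scaffold for iron-sulphur clusters, rose by 0.29 (limma adjusted p = 0.0165).

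Of 43 such genes 36 were tested. In set 1, 7 rose and 5 fell, with a median log2 fold change of 0.088, beside 9.33% and 6.61% of all genes tested. In set 2, 6 rose and 3 fell, with a median of 0.049, beside 11.6% and 8.71% of all genes. There IREB2, an iron sensor that binds mRNA, fell from 42.6 FPKM to 33.0 and 32.6 FPKM (-0.37, limma adjusted p = 0.00241) and the transcription factor NRF1 fell by 0.31 on the log2 scale (limma adjusted p = 0.0235). NFS1, the cysteine desulphurase that supplies sulphur for iron-sulphur clusters, rose by 0.34 on the log2 scale (limma adjusted p = 0.00489) and COX10, which turns haem into haem O, rose by 0.25 (limma adjusted p = 0.0397). The effects of the sets differed for 12 of the 36, beside 20.4% of all genes, 7 higher and 5 lower in set 2, with SHMT2 at 0.65, KLF1 at 0.50, GATA2 at 0.44 and the mitochondrial transporter ABCB10 at 0.42 (limma adjusted p = 0.00148, 0.0127, 0.000897 and 0.04897). By the single effect 0 of the 36 passed with limma, with 11 at an unadjusted p under 0.05. Averaged over the sets, 5 were higher (NFS1, BACH1, COX10, BLVRB and HMOX1) and 1 was lower (IREB2), beside 10.7% and 7.08% of all genes. HMOX2 and GCSH, which many cells use, were listed at 0 in all 4 libraries of set 2, where such a value can be a failed estimate.

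**Figure D4:**
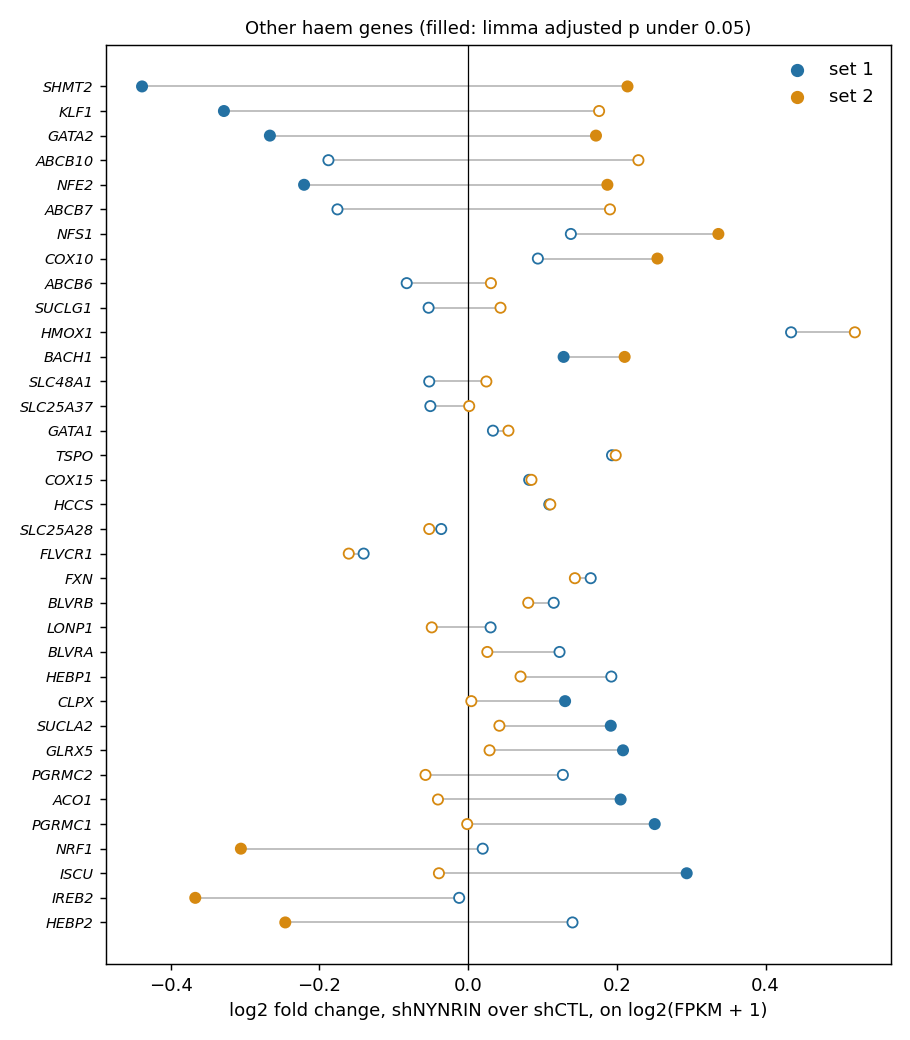
Log2 fold change of shNYNRIN over shCTL on log2(FPKM + 1) (x axis) in set 1 (blue) and set 2 (orange) for 35 of the 36 other haem genes tested (y axis, ordered by the difference between the sets); filled points had a limma adjusted p under 0.05. SHMT2, at the top, goes from -0.44 to 0.21, and HMOX1 lies at 0.43 and 0.52 without passing in either set.

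HMOX1, the inducible oxygenase that breaks haem down, was at 0.871 and 1.21 FPKM in the shCTL and 1.80 and 1.69 FPKM in the shNYNRIN libraries of set 1. Set 2 had it at 0.645 FPKM in shCTL replicate 4 and at 1.68 and 1.08 FPKM with shNYNRIN. This level is near the 1 FPKM that entered the filter, and its log2 fold changes did not pass in either set (limma adjusted p = 0.115 and 0.114) or as a single effect (limma adjusted p = 0.118). Averaged over the sets HMOX1 passed at 0.48 (limma adjusted p = 0.0449). HMOX1 was singled out after its values were seen.

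Profiles over the 7 libraries were compared by the root mean square difference of log2(FPKM + 1), centred per gene, among genes with a mean of at least 10 FPKM. The nearest genes to UROS were PTPRC (0.041), SUSD1 (0.046) and IL16 (0.049), against a median of 0.20 over 5879 genes. Among those nearest to CPOX were MCMBP (0.026) and the replicative helicase subunit MCM7 (0.028), against a median of 0.15. To FECH they were SLA2 (0.025), TIE1 (0.026) and ATG13 (0.027), against a median of 0.14. The 2 members most alike were FECH and SLC25A38 (0.068). These distances describe 7 libraries that share tables and groups.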

How the data were processed

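RNA of sorted cells labelled KG-1a was sequenced in 8 libraries (SMART-Seq v4, per the labels). Groups and replicate numbers come from the sample titles, and columns were matched by library name. The submitters' processing notes list Bowtie 0.12.9, Cufflinks 2.1.1, HTSeq, mm10 and hg38 with no role, and no source used here gives alignment or strand settings. The deposited unit is taken to be FPKM in 7 libraries, judged by scale since no header names one, with 0.001 read as 0 in set 1. The whole numbers of shCTL replicate 3 are handled as a deposited score. Per the file headers, set 1 also holds the authors' mean normalized count (used as a score), log2 fold change, p-value and q-value. The authors' mean normalized counts summed to 38529983, and the depth of single libraries is otherwise known only as ratios in set 2.

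Log2(FPKM + 1) of genes with at least 1 FPKM in at least 2 libraries was tested in R 4.3.3 by limma 3.58.1 (two-sided, mean-variance trend). P-values of 12939 genes were adjusted by Benjamini-Hochberg, with 0.05 as the threshold. Fold changes on this scale understate low genes. The model with group, table and their interaction (3 residual degrees of freedom) gave the set effects, the lone control of set 2 being given the same spread as other libraries, and the additive model (4) the single effect. No label names separate cultures, so p-values cover the spread among libraries only, and that may be technical. The fits were tested on simulated data. Members and lists were chosen with earlier results of these data known. Named genes were all members, up to 4 of the other haem genes per comparison by size among those past the threshold, and the 3 nearest profiles of the 3 members with the largest difference between sets. Some genes that this rule or the lists name are not reported here. By library-name number, same-numbered libraries had correlated deviations from the group means (r of 0.101, 0.141, 0.154 and 0.147 over 5852 genes), but so had the differently numbered libraries of the same crossed tables (r of 0.142 to 0.183). Libraries of the same table had negative correlations by this measure (r of -0.175 to -0.12). With table means removed same-numbered pairs were at -0.106 and -0.00461, so single numbers were not seen to pair. With 2 libraries per group in a table, the other pairs are equal and opposite by construction. Any shared difference of numbers 1 and 2 from numbers 3 and 4 goes with the table means, so these values cannot decide about it. The block is given only where it changes a call. Alternatives covered the pseudocount, filter, scaling, trend, shCTL replicate 3, blocks and each library left out.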

Additional observations from a re-analysis of the deposited data

Results flagged for a closer look

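The effect of shNYNRIN differed between the sets by the interaction term for 4 members. The set 2 effect exceeded that of set 1 by 0.68 for UROS, 0.36 for FECH and 0.34 for ALAD on the log2 scale, and was lower for CPOX by a difference of -0.40 (limma adjusted p = 0.000793, 0.02702, 0.0214 and 0.00371). The target NYNRIN differed too, at -0.85 (limma adjusted p = 0.00132). All rest on 1 control library in set 2, and the libraries' name numbers change with the set. No member had a library that stood apart among the 4 shNYNRIN libraries by Dixon's criterion. The libraries of both sets were pooled for it, and where they fall into pairs by set, as for UROS, the criterion can hardly be met. It therefore says little about single libraries.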

How the results depend on the processing

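Counts over the members moved as follows. Set 1 had 4 with genes of a mean of at least 10 FPKM, where 2055 of 5880 genes passed. Set 2 had 3 without the mean-variance trend, and there the difference had 2. The single effect had 0 members with quantile normalization, without the trend and with the replicate block by library-name or by title number, 2 with shCTL replicate 3 plus 0.5, and 3 when averaged over the sets. In each fit with 0 members, 2 had an unadjusted limma p under 0.05. Leaving out 1 library gave 2 to 3 members in set 1, 3 to 6 in set 2, 2 to 5 for the difference and 0 to 2 for the single effect. Over all genes, without the trend 977 passed in set 1, 1726 for the difference and 0 for the single effect (2371 at an unadjusted limma p under 0.05). For the single effect 82 passed with a mean of at least 10 FPKM, 8 with quantile normalization (50% higher, against 61% as deposited and 33.3% with upper-quartile scaling), 356 and 452 with shCTL replicate 3 as deposited and plus 0.5, 17 with that library in place of shCTL replicate 4 (an alternative chosen after seeing the data), 0 with the replicate block by library-name or title number (2188 and 1305 at an unadjusted limma p under 0.05) and 2304 when averaged. Leaving out 1 library gave 611 to 2088 genes in set 1, 1170 to 2975 in set 2, 1429 to 2590 for the difference and 0 to 2088 for the single effect, with at least 1803 at an unadjusted limma p under 0.05.

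Signs turned for values that did not pass. The ALAS2 difference was 0.052, 0.0080 and, with the block by title number too, 0.0080 when shCTL replicate 3 entered, and 0.14 when it replaced replicate 4. The single effect of SLC25A38 was -0.0063 with quantile normalization, -0.012 with upper-quartile scaling and -0.0060 with the block by title number, and that of UROD was -0.017 with upper-quartile scaling and -0.049 with the block by library-name number. Without 1 library UROD lay between -0.015 and 0.11 in set 1, and the single effect lay between -0.025 and 0.050 for UROD, -0.058 and 0.14 for ALAD, -0.069 and 0.14 for FECH, -0.056 and 0.049 for SLC25A38 and -0.12 and 0.079 for CPOX. The cause was not tested, except that without shCTL replicate 4 the single effect is by construction that of set 1. Title numbers were not seen to pair the libraries within the tables (r of -0.037 and -0.039), but this is 1 value per table, the other pairs being equal and opposite by construction. Depth of single libraries is not known, and set 2 rests on 1 control library.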
